A study of Canis lupus familiaris with 12 samples.

Results

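PLA2G5, PLA2G2D, PLA2G2F and PLAAT3 are 4 of the 29822 annotated genes counted in cultured canine peripheral blood mononuclear cells (PBMCs), the lymphocytes, monocytes and dendritic cells of blood. PLA2G5, PLA2G2D and PLA2G2F encode secreted phospholipases A2, and PLAAT3 encodes an intracellular enzyme with phospholipase and acyltransferase activity. The 4 genes were chosen by name with their levels in these libraries in view, so their levels and differences are given as a description, with no p-value. Whether a model called them is stated for completeness, and nothing is read from those calls. Healthy male beagles, free of specific pathogens and kept as donors, gave the blood, from which the cells were taken on a density gradient. Cells were kept in culture for 24 h with concanavalin A at 0.5 µg/ml and ALA at 1.0 mM (ConA+ALA), with ConA alone, with ALA alone, or with neither (untreated). ConA is a plant lectin that activates T cells, and ALA is 5-aminolevulinic acid, from which cells build heme. Each of the 4 groups has 3 libraries, numbered 1 to 3 in the labels, which makes 12 in all. Nothing in the labels ties a number to an animal, so a p-value here measures only how far these samples spread, and that spread may be technical. All groups shared the same serum-containing medium with antibiotics and 2-mercaptoethanol.

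Phospholipases A2 cut a fatty acid from the middle position of a membrane phospholipid, which leaves a free fatty acid and a lysophospholipid. Secreted members need calcium and act on membranes outside the cell, on lipoproteins and on vesicles. Cytosolic enzymes, the best known of which is PLA2G4A, release arachidonate inside the cell for the synthesis of prostaglandins and leukotrienes. In mice, Pla2g5 is expressed in macrophages, Pla2g2d in dendritic cells and macrophages of lymphoid tissue, and Pla2g2f in the epidermis. In mice, Plaat3 is best known from fat cells.

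The 3 secreted phospholipase genes lie together on chromosome 2 of the CanFam3.1 build, within 65756 bases. PLA2G2F (ENSCAFG00000015097) spans 78716228 to 78723984 on the minus strand with 5 exons, and PLA2G2D (ENSCAFG00000015085) spans 78739769 to 78745920 on the plus strand with 6 exons. PLA2G5 (ENSCAFG00000023246) spans 78762852 to 78781983 on the minus strand with 11 exons. PLAAT3 (ENSCAFG00000015082) lies on chromosome 18 from 53368030 to 53398290 on the plus strand, with 4 exons. None of the 4 overlaps another annotated gene, the nearest genes being 7719 to 16932 bases away. Of their exon reads, 100% were unique to the gene, so reads shared between family members do not enter these values.

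The libraries held 13390692 to 21517099 exon reads each, with 11856 to 12917 genes at 10 or more reads. The libraries of number 1 stood apart in all 4 groups. Mitochondrial genes took 3.59 to 4.82% of exon reads in them and 11.8 to 23.3% in the libraries of numbers 2 and 3. Reads across exon junctions made up 52.4 to 54.2% of exon reads in number 1 and 36.1 to 43.4% in the others. Because of this, values are given for each number and within each number as well as pooled. Genes defining T cells, B cells, killer cells and monocytes, the cells that PBMCs should hold, were present in every group. All 4 genes passed the filter on low counts, and the 3 secreted phospholipases did so only through their reads in the ConA libraries.

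PLA2G5 encodes the group V secreted phospholipase, which acts well on phosphatidylcholine. In libraries 1, 2 and 3 it had 68, 12 and 8 exon reads with ConA+ALA and 3085, 577 and 269 reads with ConA. With ALA it had 8, 8 and 2 reads, and in untreated cells 8, 3 and 7 reads. Each ConA library was far above all 9 others, and each ConA+ALA library had a higher level than any ALA or untreated library. In CPM (read counts scaled to library size), PLA2G5 averaged 1.52 ± 1.23 with ConA+ALA, 61.2 ± 51.6 with ConA, 0.337 ± 0.184 with ALA and 0.320 ± 0.112 in untreated cells (SD, n = 3 each). The ALA and untreated ranges overlapped.

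PLA2G2D encodes the group IID enzyme. It had 6, 2 and 0 exon reads with ConA+ALA and 770, 147 and 28 reads with ConA. With ALA it had 0, 4 and 0 reads, and in untreated cells 2, 0 and 6 reads. The ConA libraries were again above all others, and the 3 other groups overlapped at or near 0. Mean levels were 0.136 ± 0.130 CPM with ConA+ALA, 14.4 ± 14.04 with ConA, 0.0872 ± 0.151 with ALA and 0.146 ± 0.181 in untreated cells (SD, n = 3 each).

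PLA2G2F encodes the group IIF enzyme and was the lowest of the 4 in reads. It had 1, 0 and 0 exon reads with ConA+ALA and 128, 28 and 36 reads with ConA. With ALA it had 10, 2 and 9 reads, and in untreated cells 5, 0 and 14 reads. The order of its groups was not that of PLA2G5, since the ConA+ALA libraries lay below every ALA library and below 2 of the 3 untreated ones. Mean levels were 0.0144 ± 0.025 CPM with ConA+ALA, 3.24 ± 1.48 with ConA, 0.414 ± 0.284 with ALA and 0.346 ± 0.421 in untreated cells (SD, n = 3 each).

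PLAAT3 was expressed in every library. It had 138, 109 and 62 exon reads with ConA+ALA and 530, 237 and 298 reads with ConA. With ALA it had 200, 202 and 128 reads, and in untreated cells 188, 118 and 202 reads. Its mean level was 6.60 ± 1.35 CPM with ConA+ALA, 20.1 ± 1.22 with ConA, 10.5 ± 2.52 with ALA and 9.28 ± 2.18 in untreated cells (SD, n = 3 each). The ConA libraries lay above all others, the ALA and untreated libraries overlapped, and the ConA+ALA libraries lay below every ALA library while overlapping the untreated ones.

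**Figure D1:**
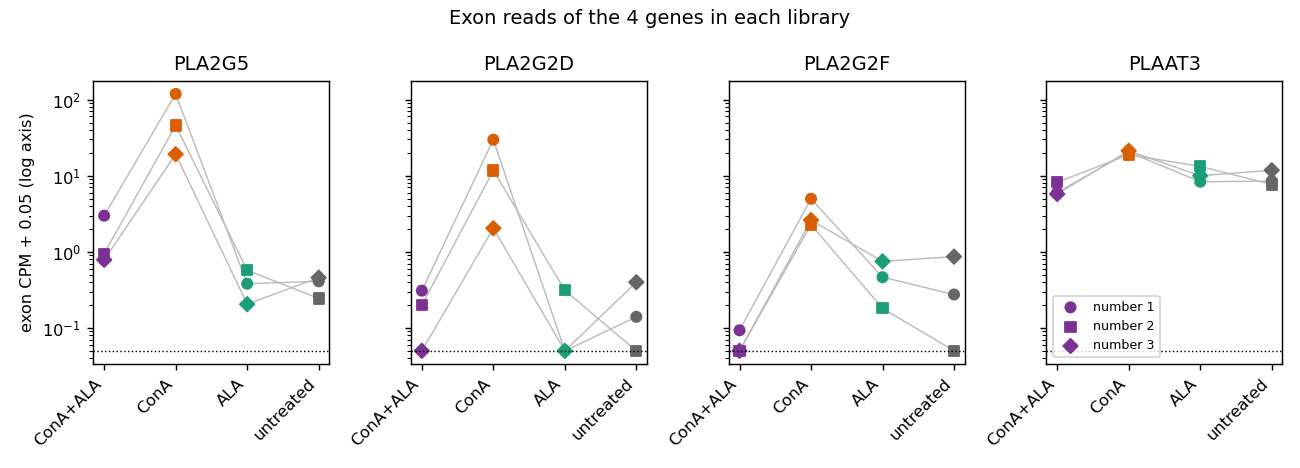
Exon level of each gene in each of the 12 libraries, in CPM + 0.05 on a log axis; shapes are library numbers, lines join libraries of the same number, and the dotted line marks 0 reads. PLA2G5, PLA2G2D and PLA2G2F are high in the ConA libraries and low or at 0 in the other 9, while PLAAT3 stays between 5.70 and 21.2 CPM.

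The secreted phospholipases also differed from PLAAT3 in how far the 3 ConA libraries spread. PLA2G5 reached 118.8, 45.7 and 19.1 CPM in ConA libraries 1, 2 and 3, so the highest was 6.21 times the lowest. PLA2G2D reached 29.7, 11.7 and 1.99 CPM, a 14.9-fold spread. PLA2G2F reached 4.93, 2.22 and 2.56 CPM, a 2.22-fold spread. PLAAT3 reached 20.4, 18.8 and 21.2 CPM, a 1.13-fold spread. Library 1 was the highest for all 3 secreted phospholipases, and it is also one of the libraries with few mitochondrial reads; the part of that difference in these spreads was not tested.

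Levels of different genes were compared per length, as TPM (read counts scaled to gene length and to the library's total), in the ConA libraries. PLA2G5 had 105.3, 20.8 and 10.7 TPM in libraries 1, 2 and 3, and PLA2G2D had 63.8, 12.9 and 2.70 TPM. PLA2G2F had 14.6, 3.38 and 4.79 TPM, and PLAAT3 had 44.0, 20.8 and 28.8 TPM. PLA2G5 was thus above PLA2G2D in 3 of 3 libraries, by 1.65, 1.62 and 3.96 times in TPM. The order of PLA2G5 and PLAAT3 changed with the library, PLA2G5 having 2.39, 1.00 and 0.371 times the TPM of PLAAT3. PLA2G2D was above PLA2G2F in libraries 1 and 2 and below it in library 3. In the other 9 libraries PLAAT3 had the highest TPM of the 4.

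ConA against untreated cells addresses how stimulation changes these genes. Over the summed exon reads of each group, scaled to library size, PLA2G5 was 228-fold higher with ConA (95% counting interval 144 to 384) and PLA2G2D 123-fold higher (62.2 to 286). PLA2G2F was 10.5-fold higher (6.56 to 17.9), and PLAAT3 was 2.18-fold higher (1.96 to 2.43). These intervals cover counting error only, and the libraries spread more widely. Within numbers 1, 2 and 3, PLA2G5 was 330, 236 and 46.9 times its untreated level, and PLAAT3 was 2.41, 2.46 and 1.80 times its own. For PLA2G2D the ratio was 329 in number 1 and 5.70 in number 3, and in number 2 there were 147 reads with ConA against 0 untreated. PLA2G2F had ratios of 21.9 in number 1 and 3.14 in number 3, and 28 reads against 0 in number 2. All 4 genes were higher with ConA in 3 of 3 numbers, and number 3 gave the smallest ratio for each.

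In the model across all genes (edgeR's quasi-likelihood test), the log2 fold change with ConA was 7.53 ± 0.84 for PLA2G5, 6.56 ± 1.31 for PLA2G2D, 3.20 ± 1.04 for PLA2G2F and 1.12 ± 0.27 for PLAAT3 (± SE). With a Benjamini-Hochberg adjusted p under 0.05, 3 of the 4 were called higher, where 9.93% of all genes tested were called higher, and PLA2G2F was not. With the library number as a block, 4 of 4 were called higher, against 21.3% of all genes. The genes were chosen on this contrast, so nothing is read from these counts. Without number 3, the log2 fold change of PLA2G2D was 8.47, and without number 1 it was 5.20.

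ConA+ALA against ConA addresses what ALA does to stimulated cells. In summed exon reads, PLA2G5 was 40.2-fold lower with ConA+ALA (95% counting interval 32.6 to 50.3) and PLA2G2D 106-fold lower (53.8 to 247). PLA2G2F had 1 read with ConA+ALA against 192 with ConA, a ratio of 173-fold with a counting interval of 30.7 to 6866. PLAAT3 was 3.10-fold lower (2.73 to 3.54). Within numbers 1, 2 and 3, PLA2G5 was 40.5, 51.0 and 26.0 times lower and PLAAT3 3.43, 2.31 and 3.72 times lower with ConA+ALA than with ConA. For PLA2G5 these folds lay closer together than its ratios to untreated cells, and for PLAAT3 they did not. PLA2G2D was 114.5 and 77.9 times lower in numbers 1 and 2, and had 0 reads against 28 in number 3. PLA2G2F had 1, 0 and 0 reads against 128, 28 and 36. All 4 genes were lower with ConA+ALA in 3 of 3 numbers.

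The fitted log2 fold changes were −5.26 ± 0.73 for PLA2G5, −6.48 ± 1.31 for PLA2G2D, −6.91 ± 1.40 for PLA2G2F and −1.61 ± 0.27 for PLAAT3 (± SE). Those of PLA2G2D and PLA2G2F depend on the prior count of the model, as 1 or more ConA+ALA libraries had 0 reads. Ordered from the lowest of 13358 fitted values, PLA2G2F stood at place 1, PLA2G2D at 2, PLA2G5 at 7 and PLAAT3 at 137. None of the 4 was called without the block, where 0.0% of all genes were called. Over all genes, 445 had an unadjusted p under 0.05, and DESeq2 called 49. With the library number as a block, PLA2G5, PLA2G2F and PLAAT3 were called lower, against 0.217% of all genes called lower, and the log2 fold change of PLA2G5 was −5.22 ± 0.38. DESeq2 called 4 of 4 lower, where it called 0.187% of all genes lower. The genes were chosen on this contrast too, so nothing is read from these counts. In bulk RNA, fewer cells of a type and less RNA per cell cannot be told apart.

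**Figure D2:**
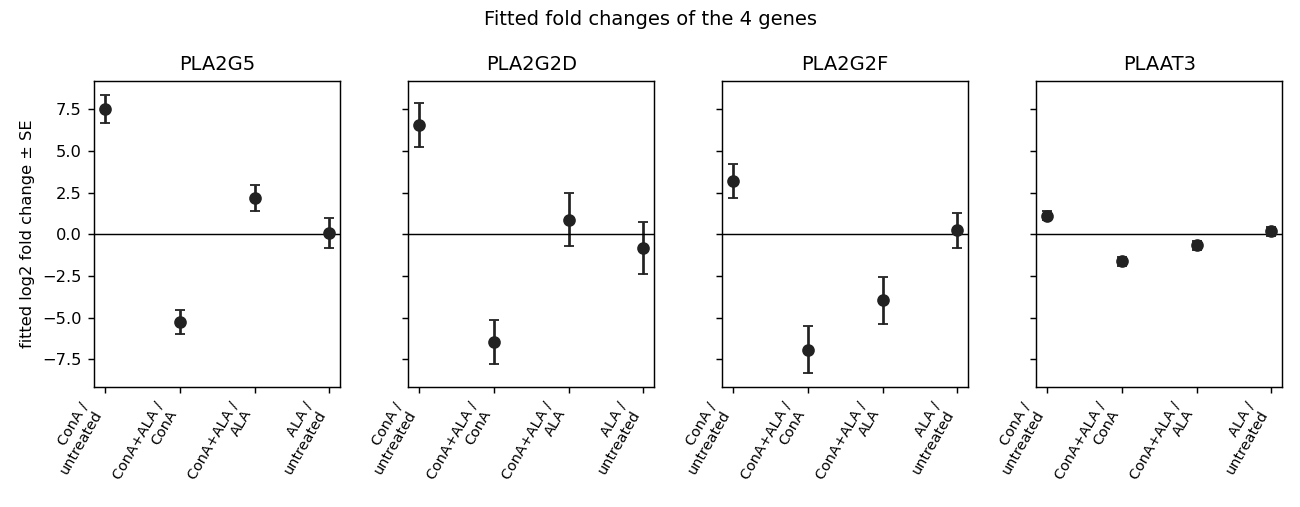
Fitted log2 fold change of each gene, with bars of 1 SE from the model without the block, in ConA against untreated, ConA+ALA against ConA, ConA+ALA against ALA and ALA against untreated. All 4 genes lie above 0 in the first and below 0 in the second, and in ALA against untreated they lie between −0.81 and 0.24.

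ALA in unstimulated cells gave small differences with wide errors. The fitted log2 fold changes of ALA against untreated were 0.07 ± 0.89 for PLA2G5, −0.81 ± 1.56 for PLA2G2D, 0.24 ± 1.03 for PLA2G2F and 0.17 ± 0.27 for PLAAT3 (± SE). None of the 4 was called, with or without the block or by DESeq2, where edgeR called 0.0% of all genes without the block and 0.0449% with it. Over all genes, 155 had an unadjusted p under 0.05 in this comparison and DESeq2 called 4, 0.03% of those it tested. These groups each held 18 exon reads of PLA2G5 and at most 21 of PLA2G2D or PLA2G2F. A change in exon reads of the secreted phospholipases with ALA alone was thus not detectable at this depth unless it was large. The few intron reads of PLA2G5, given below, were lower with ALA. The difference between the effect of ALA with ConA and that without ConA was −5.33 ± 1.14 for PLA2G5, −5.67 ± 2.28 for PLA2G2D, −7.15 ± 1.74 for PLA2G2F and −1.78 ± 0.38 for PLAAT3 on the log2 scale (± SE). None of these was called by edgeR with or without the block, where 0.0% of all genes were called in both models. Over all genes, 222 had an unadjusted p under 0.05 for this difference, and DESeq2 called 4 genes, 0.03% of those it tested, PLA2G5 and PLAAT3 among them. Nothing is read from that, since the genes were chosen on the same reads.

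ConA+ALA against ALA gives the effect of ConA when ALA is present. PLA2G5 was higher with ConA+ALA, with a log2 fold change of 2.20 ± 0.78, and PLA2G2F was lower, with −3.95 ± 1.41 (± SE). PLA2G2D had 0.89 ± 1.57 and PLAAT3 −0.66 ± 0.27. None was called without the block, where 8.12% of all genes were called, and with the block PLA2G5 was called higher and PLA2G2F lower, against 15.8% and 14.3% of all genes. The genes were chosen with their levels in all 4 groups in view, so nothing is read from these calls either. This comparison shares the ConA+ALA libraries with the one above, so the values stand side by side and are not independent.

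Reads in introns, which come mostly from unspliced RNA, were counted separately in the deposited tables. PLA2G5 had 13, 4 and 2 intron reads with ConA+ALA and 676, 68 and 45 with ConA. With ALA it had 0, 3 and 3, and in untreated cells 10, 6 and 7. The intron reads of PLA2G5 were thus high in the same libraries as its exon reads. Summed and scaled, they were 37.4-fold lower with ConA+ALA than with ConA (95% counting interval 23.8 to 62.5) and 35.8-fold higher with ConA than in untreated cells (23.7 to 56.7). ConA library 1 held 676 of the 789 intron reads with ConA, so both pooled values rest mostly on it. Within numbers 1, 2 and 3, intron reads were 46.4, 18.0 and 17.4 times lower with ConA+ALA than with ConA, and 57.8, 13.9 and 7.85 times higher with ConA than in untreated cells. The direction held in 3 of 3 numbers in both comparisons. Untreated cells had more intron than exon reads of PLA2G5, 23 against 18.

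PLA2G2D had intron reads with ConA alone, 75, 0 and 4 in libraries 1, 2 and 3, and none in the 9 other libraries. Against a floor of 3 reads over the group, this is 23.7-fold lower with ConA+ALA and 27.4-fold higher with ConA than in untreated cells. The 95% counting intervals on the reads themselves start at 18.8-fold and 21.8-fold. PLA2G2F had 2, 0 and 0 intron reads with ConA+ALA and 129, 2 and 14 with ConA, and 4, 2 and 1 with ALA and 4, 2 and 6 in untreated cells. It was 65.3-fold lower with ConA+ALA than with ConA (95% counting interval 17.8 to 544). Library 1 gave most of these reads for both genes. PLAAT3 had 68, 34 and 37 intron reads with ConA+ALA and 185, 44 and 53 with ConA. With ALA it had 72, 53 and 27, and in untreated cells 46, 29 and 50. Its intron reads were 1.83-fold lower with ConA+ALA (1.49 to 2.26), less than the 3.10-fold in its exon reads. Within numbers 1, 2 and 3 the intron reads of PLAAT3 were 2.43, 1.37 and 1.11 times lower with ConA+ALA than with ConA. Its exon reads were 3.43, 2.31 and 3.72 times lower. In number 1 the intron level was 2.93 CPM with ConA+ALA and 7.12 with ConA. In number 3 it was 3.40 CPM with ConA+ALA and 3.77 with ConA.

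**Figure D3:**
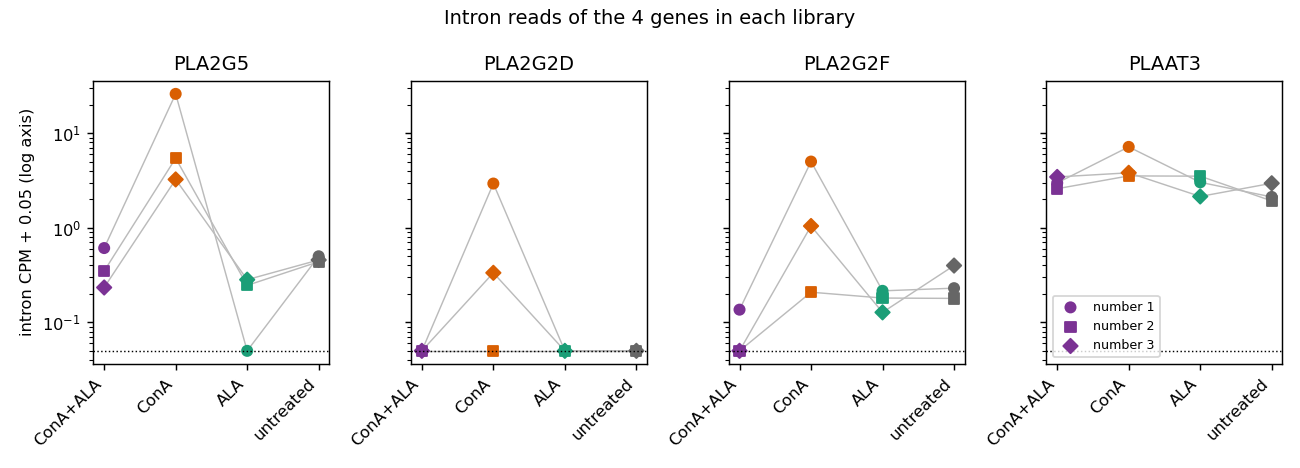
Intron-read level of each gene in each of the 12 libraries, in CPM + 0.05 on a log axis; shapes are library numbers, lines join libraries of the same number, and the dotted line marks 0 reads. PLA2G2D has intron reads in 2 ConA libraries and in none of the 10 others.

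None of the genes beside the 4 that was tested was called in any comparison without the block. Within 150000 bases of a secreted phospholipase gene lie OTUD3, a deubiquitinase, and UBXN10, RNF186, VWA5B1 and PLA2G2E. OTUD3 had 18.2 ± 4.21 CPM with ConA+ALA, 21.2 ± 5.55 with ConA, 15.5 ± 2.69 with ALA and 15.9 ± 3.19 in untreated cells (SD, n = 3 each). Its log2 fold change was −0.22 ± 0.27 for ConA+ALA against ConA and 0.42 ± 0.27 for ConA against untreated (edgeR adjusted p = 0.317). UBXN10 and RNF186 had 0 exon reads in all 12 libraries, and PLA2G2E, another secreted phospholipase, had 6, all in untreated library 3. VWA5B1 had 0 exon reads summed over the ConA+ALA libraries, 13 with ConA, 35 with ALA and 31 in untreated cells. With the block it was called lower in ConA+ALA against ALA (edgeR adjusted p = 0.0136).

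Near PLAAT3 lie C18H11orf95, RTN3 and ATL3, both reticulum-shaping proteins, LGALS12, a galectin, and its relatives PLAAT4 and PLAAT5. ATL3, the nearest at 7719 bases, had a log2 fold change of −0.11 ± 0.30 for ConA+ALA against ConA and 0.17 ± 0.30 for ConA against untreated. PLAAT4 averaged 180 TPM with ConA+ALA, 281 with ConA, 179 with ALA and 294 in untreated cells. In CPM, however, PLAAT4 was higher with ConA than in untreated cells in 3 of 3 numbers. Its fitted log2 fold change there was 0.31 ± 0.29, not called with or without the block. PLAAT3 was less abundant, averaging 10.2 TPM with ConA+ALA, 31.2 with ConA, 19.5 with ALA and 18.5 in untreated cells. PLAAT4 had a log2 fold change of −0.65 ± 0.29 for ConA+ALA against ConA, with an adjusted p of 1.0 without the block and 0.0466 with it (edgeR), and was lower in 3 of 3 numbers.

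**Figure D4:**
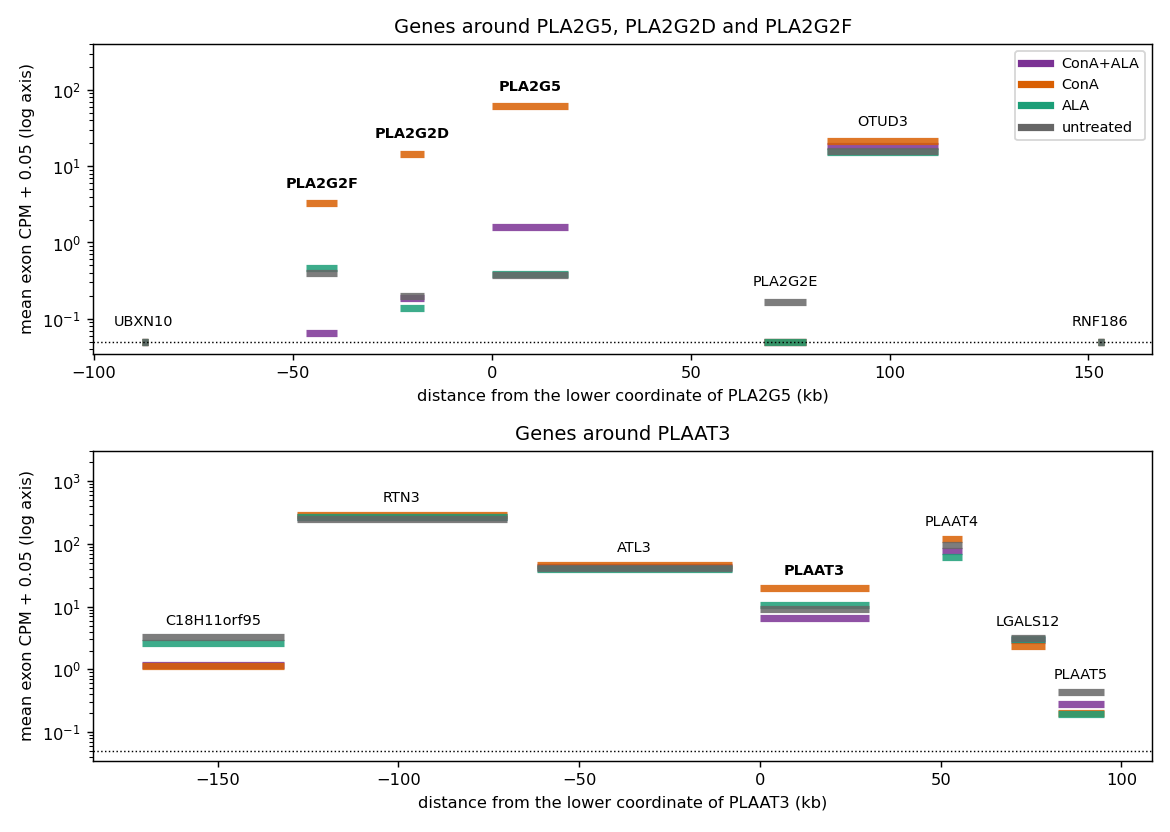
Mean exon level in each group (n = 3) of the genes with a symbol within 150000 bases of PLA2G5 (upper panel) and of PLAAT3 (lower panel), in CPM + 0.05 on a log axis, against distance from the lower coordinate of that gene in kb. Each bar spans a gene, the colours are the 4 groups and the dotted line marks 0 reads. The ConA bars of PLA2G5, PLA2G2D and PLA2G2F stand far above their other bars, while those of OTUD3 (15.5 to 21.2 CPM) lie together.

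Likeness of pattern was measured as the root mean square difference of log2 CPM, each gene centred on its own mean, over the 12 libraries and 10073 genes with a symbol and at least 20 reads on average. The gene most like PLA2G5 was PLA2G2D, at 0.88, where the median over all genes was 2.91. After it came GALNT14, a glycosyltransferase, at 1.32, IGSF10 at 1.38, SUCNR1, the succinate receptor, at 1.51, and NPPC, the precursor of C-type natriuretic peptide, at 1.53. For PLA2G2D the order was PLA2G5 at 0.88, IGSF10 at 1.18, GALNT14 at 1.30, and IDO1 and IDO2, both enzymes of tryptophan breakdown, at 1.37 and 1.48, with a median over all genes of 2.62. PLAAT3 was least unlike KIAA0513 at 0.35, NINJ1 at 0.37, TFEC at 0.40, NUBPL at 0.41 and ZWINT at 0.42, where the median was 0.78. PLA2G2F had 19.4 reads on average and was not ranked. These likenesses are descriptions over libraries that share groups and numbers. They use a prior count of 2, added to the reads before the log. With 0.5 instead, PLA2G5 and PLA2G2D were still nearest to each other, at 1.18. IDO2 then took the place of NPPC for PLA2G5, and CALD1 that of IDO2 for PLA2G2D. A flat gene would lie near the member's own SD of log2 CPM, which was 3.01 for PLA2G5, 2.70 for PLA2G2D and 0.65 for PLAAT3 (prior count 2). SUCNR1 had 1.32 CPM with ConA+ALA, 7.89 with ConA, 0.0988 with ALA and 0.549 in untreated cells on average, and IDO1 had 207 CPM with ConA+ALA, 1663 with ConA, 162 with ALA and 196 in untreated cells.

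Of the enzymes, receptors and regulators around these genes, 85 were listed in 9 lists, of which 71 were in the deposited tables and 53 passed the filter on low counts. The list of other secreted phospholipases and related genes held 10, of which 7 were in the tables. Among them, PLA2G1B, PLA2G3, PLA2G10 and PLA2G12B had 0 exon reads in all 12 libraries and were not detectable at this depth. PLA2G12A and PROCA1 were tested. PLA2G12A had 108, 65 and 42 exon reads with ConA+ALA and 144, 84 and 71 with ConA, with a log2 fold change of −0.36 ± 0.42. PROCA1 had 15, 16 and 10 reads with ConA+ALA and 19, 22 and 25 with ConA, with −0.61 ± 0.61. PLA2R1, the receptor that binds secreted phospholipases, had 0 exon reads in the ConA+ALA, ConA and untreated libraries and 7, 8 and 2 in the ALA libraries.

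In ConA+ALA against ConA, 0 of the 53 tested pathway genes were called without the block and 5 had an unadjusted p under 0.05. With the block 1 was called, PLAAT4. Their median log2 fold change was −0.02, beside −0.03 over all genes. PLA2G6, a calcium-independent phospholipase, had 0.57 ± 0.21 in this comparison, ALOX5AP, which presents arachidonate to the leukotriene-forming enzyme, 0.97 ± 0.44, and MBOAT1, a lysophospholipid acyltransferase, −0.42 ± 0.18. PLA2G4A had 18.1, 5.38 and 7.63 CPM with ConA+ALA and 31.5, 12.1 and 20.9 CPM with ConA, a log2 fold change of −1.04 ± 0.60 that was not called in either model. PTGS2, the inducible cyclooxygenase, had 122, 89.8 and 270 CPM with ConA+ALA and 161, 154 and 234 CPM with ConA, and its log2 fold change was −0.19 ± 1.11.

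In ConA against untreated, 12 of the 53 were called, 4 higher and 8 lower, which is 22.6% where 18.5% of all genes were called, 9.93% higher and 8.57% lower. Their median log2 fold change was −0.31, beside −0.05 over all genes. By direction, 7.55% of the 53 were called higher and 15.1% lower. With the block 24 were called, where 42.5% of all genes were called. Of these, 7 were higher (13.2% of the 53, beside 21.3% of all genes) and 17 lower (32.1%, beside 21.2% of all genes).

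Of the 10 tested intracellular and lysosomal phospholipases, 1 rose and 2 fell with ConA. PRDX6, a peroxiredoxin with phospholipase activity, rose by a log2 fold change of 1.85 ± 0.23 (edgeR adjusted p = 0.00057), with 115, 110 and 80.1 CPM in ConA and 26.0, 22.8 and 35.8 CPM in untreated libraries. PLA2G6 had a log2 fold change of −1.18 ± 0.21 (edgeR adjusted p = 0.0031), with 19.4, 33.2 and 26.6 CPM in ConA and 51.5, 67.0 and 60.5 CPM in untreated libraries. PNPLA7, a lysophospholipase, had −0.97 ± 0.26 (edgeR adjusted p = 0.021). PLA2G4A had 1.07 ± 0.60, with an adjusted p of 0.25 without the block and 0.020 with it. Of the 5 genes of platelet-activating factor hydrolases, PAFAH1B1, a regulatory subunit, had 0.52 ± 0.16 and PAFAH1B3, a catalytic one, −1.04 ± 0.28, both called (edgeR adjusted p = 0.040 and 0.025). Of the 12 tested genes of lysophospholipid removal and reacylation, MBOAT1 was called higher, at 0.62 ± 0.18 (edgeR adjusted p = 0.035).

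Of the 9 tested eicosanoid genes, PTGES2, annotated as a prostaglandin E synthase, rose by a log2 fold change of 2.51 ± 0.55 (edgeR adjusted p = 0.0087). ALOX5, the enzyme that starts leukotriene synthesis, had −3.57 ± 1.04 (adjusted p = 0.033) and ALOX5AP had −2.28 ± 0.45 (adjusted p = 0.0047, edgeR), both lower with ConA. PTGS2 had 3.03 ± 1.20, with an adjusted p of 0.11 without the block and 0.024 with it. Among regulators, receptors and N-acylethanolamine genes, ANXA1, an annexin that binds phospholipids, had −0.91 ± 0.21, P2RY10, a receptor for lysophosphatidylserine, −1.67 ± 0.37, and GDPD1, a lysophospholipase D, −3.41 ± 1.05, all called lower (edgeR adjusted p = 0.011, 0.0089 and 0.041). Each of the 12 called genes had its direction in 3 of 3 numbers. The calls of PRDX6, PLA2G6, PTGES2, ALOX5AP and P2RY10 held in 12 of 12 models that left out 1 library, and that of ANXA1 in 11, all but the one without untreated library 2. PNPLA7, PAFAH1B3 and ALOX5 kept theirs in 8, MBOAT1 and GDPD1 in 5, and PAFAH1B1 in 0.

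In ConA+ALA against ALA, 4 of the 53 were called, 1 higher and 3 lower, where 5.09% of all genes were called higher and 3.03% lower. PRDX6 was higher, with a log2 fold change of 1.69 ± 0.23 (edgeR adjusted p = 0.0023), and its call held in 12 of 12 models without 1 library. PROCA1 had −2.52 ± 0.62, PLA2G6 −0.86 ± 0.21 and PLA2G7, the secreted hydrolase of platelet-activating factor, −1.61 ± 0.40, with adjusted p-values of 0.029, 0.028 and 0.030 (edgeR). All 4 had their direction in 3 of 3 numbers, and the calls of PROCA1, PLA2G6 and PLA2G7 were each lost without any 1 of the ConA+ALA libraries. That of PLA2G6 was also lost without any 1 of the ALA libraries, that of PROCA1 without ALA library 2 or 3, and that of PLA2G7 without ALA library 1 or 2. With the block 11 were called, 3 higher and 8 lower, where 30.1% of all genes were. In ALA against untreated, 0 of the 53 were called and 1 had an unadjusted p under 0.05.

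**Figure D5:**
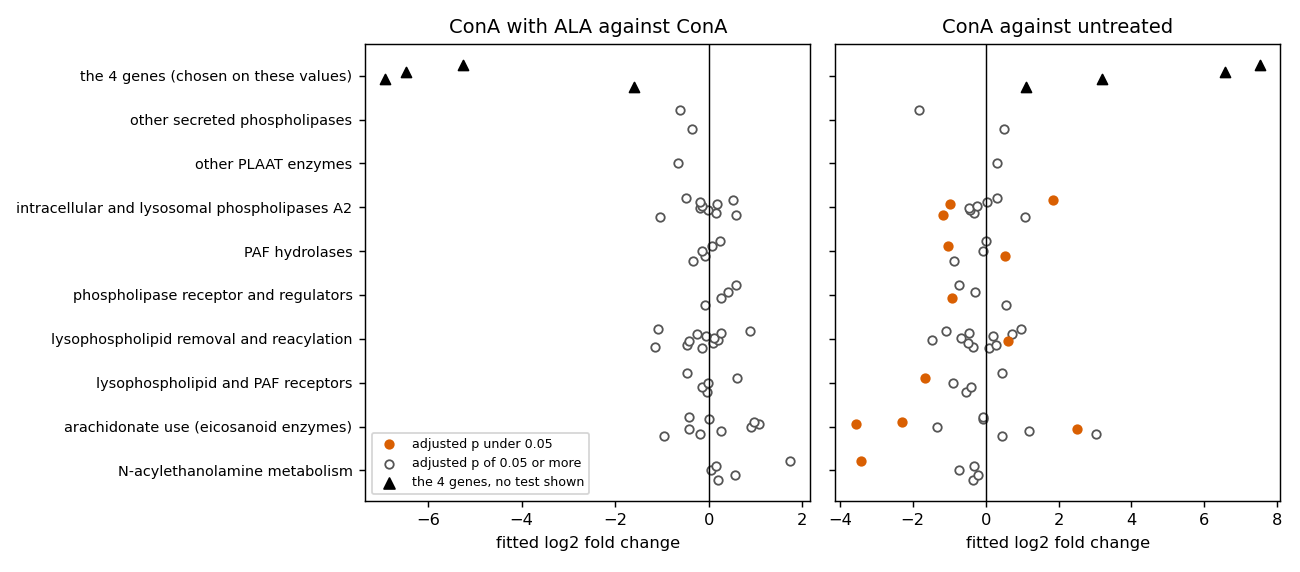
Fitted log2 fold change of the 4 genes (triangles) and of the 53 tested pathway genes by list, for ConA+ALA against ConA (left) and ConA against untreated (right). Filled points had an adjusted p under 0.05, 0 on the left and 12 on the right; the triangles carry no test because the genes were chosen on these values.

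Marker genes of blood cells moved with ConA as well. Of 54 tested markers, 20 were called in ConA against untreated, where 18.5% of all genes were. Summed TPM was lower with ConA in 3 of 3 numbers for 8 of the 11 lists. It was higher for 2, those of dendritic cells and regulatory T cells, and mixed for 1. TPM ran lower beside CPM in ConA than in untreated libraries. In number 2, RTN3 had 331 CPM with ConA and 277 untreated, but 59.5 and 79.3 TPM. The part of this scale in the sums was not tested. In the model, which uses TMM scaling, the median log2 fold changes of those 8 lists ran from −2.33 (neutrophil) to −0.35 (killer cell). Called lower were 3 of 5 neutrophil, 2 of 3 mast cell and basophil and 2 of 6 B cell markers tested. Of 5 regulatory T cell markers, 2 were called higher, CTLA4 and IL2RA, with log2 fold changes of 1.93 and 3.33. FOXP3 had 0.97 ± 0.77 and was called higher only with the block. IKZF2 had −0.72 ± 0.45 and was called in neither model. Calls of T cell and killer cell markers went both ways. The 6 monocyte and macrophage markers in the tables summed to 58.5 to 190 TPM with ConA+ALA and 26.0 to 141 with ConA. They summed to 162 to 1151 TPM with ALA and 218 to 879 in untreated cells. Of these 6, LYZ and FCGR1A were called lower with ConA than in untreated cells, where 8.57% of all genes were. The 7 markers of alternatively activated macrophages summed to 97.5 to 233 TPM with ConA+ALA, 92.5 to 247 with ConA, 81.3 to 541 with ALA and 82.5 to 267 in untreated cells. Of these 7, CCL17, CCL22 and TGM2 were called higher with ConA than in untreated cells, where 9.93% of all genes were. Of the same 7, 0 were called lower, and the median log2 fold change was 0.98. In ConA+ALA against ALA, CCL22 and TGM2 were called higher and CD209 lower, where 5.09% of all genes were called higher and 3.03% lower. The 5 dendritic cell markers summed to 268 to 368 TPM with ConA+ALA, 345 to 433 with ConA, 104 to 264 with ALA and 145 to 309 in untreated cells, with XCR1 at 0 in the ConA+ALA and ConA libraries. BATF3 alone of the 4 tested was called higher with ConA than in untreated cells. The median log2 fold change of the 4 was 0.14. In ConA+ALA against ConA, 0 of 54 tested markers of the 11 lists were called without the block, where 0.0% of all genes were called, and 7 had an unadjusted p under 0.05. With the block 3 markers were called (edgeR), where 0.554% of all genes were, and DESeq2 called 2. Those called with the block were FCGR1A and S100A8, higher with ConA+ALA, and TGM2, lower, each in 3 of 3 numbers. Their adjusted p-values with the block were 0.017 for FCGR1A, 0.012 for S100A8 and 0.040 for TGM2 (edgeR), and their log2 fold changes 2.22, 0.90 and −1.43. Compared within numbers, the summed TPM was higher with ConA+ALA than with ConA in 3 of 3 numbers for 5 of the 11 lists, those of B cells, killer cells, monocytes and macrophages, neutrophils and red cells. It was lower in 3 of 3 numbers for the dendritic cell list, and mixed for the 5 others. The ranges of the groups did not overlap for B cells and neutrophils. The 6 B cell markers summed to 1480 to 1800 TPM with ConA+ALA and 1278.5 to 1464.2 with ConA, and the 6 neutrophil markers to 92.7 to 169 TPM with ConA+ALA and 38.7 to 78.1 with ConA, with CXCR2 at 0 in both. The part of cell composition in the levels of the phospholipases was not tested.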

How the data were processed

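Poly(A) RNA of 12 cultures was sequenced as 75 bp pairs on a NextSeq 500, as the labels' protocols state. CanFam3.1 and bcl2fastq are named, per the submitters' processing notes. Aligner, counting tool and strand setting: not given in the sources used here. Each deposited table lists 29822 genes with exon, intron, junction and unique-exon read counts, which are not normalized, and TPM and RPKM values. The deposited TPM values were used to compare genes, to give group means of PLAAT3 and PLAAT4 and to sum the marker lists. The deposited RPKM values were not used.

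The test was edgeR's robust quasi-likelihood test on exon counts (edgeR 4.0.16, R 4.3.3, TMM scaling, filterByExpr, p-values adjusted by Benjamini-Hochberg over 13358 genes, threshold 0.05), with 12 libraries and 4 group means in 1 model. Fold changes are log2 with SE, and CPM values use TMM-scaled library sizes. Each SE was derived from the test, as the absolute log2 fold change divided by the square root of its F statistic. Where a group had 0 reads, 3 reads over the group served as floor. Libraries with the same number deviated together from their group means (18 pairs, r 0.376 to 0.748; other numbers −0.498 to 0.206), so the number was fitted as a block in an alternative model. Simulated data were made from these libraries, with 200 genes changed in the ConA group alone. The test called 40% of genes raised and 22% of genes lowered by a log2 change of 2, and 0% of those changed by 1. In the data, 2471 genes were called for ConA against untreated, which makes the adjusted threshold less strict than in the simulation. These shares thus do not carry over to that contrast, where changes below 1 were also called.

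The 4 genes and all lists were chosen with earlier results of these data known. Genes named are the 4, those with a symbol within 150000 bases, the 5 genes most alike, cell type markers, and of each list the up to 4 called genes with the smallest p, or else the 1 with the smallest p. PLA2G4A, PTGS2, PLA2R1 and the undetected secreted phospholipases were named after their values were seen. PLAAT4 and PLAAT5 are listed under older symbols. Alternatives were DESeq2 1.42.0, other size factors, other filters, unique reads, intron reads, and libraries or numbers left out.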

Additional observations from a re-analysis of the deposited data

How the results depend on the processing

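The log2 fold changes of the 4 genes for ConA+ALA against ConA kept their sign under every alternative run. With libraries or numbers left out they spanned −6.22 to −4.35 for PLA2G5, −7.37 to −5.42 for PLA2G2D, −8.77 to −6.46 for PLA2G2F and −1.84 to −1.47 for PLAAT3. For ConA against untreated they spanned 6.61 to 8.14 for PLA2G5, 5.20 to 8.47 for PLA2G2D, 2.54 to 4.81 for PLA2G2F and 1.01 to 1.32 for PLAAT3. For ConA+ALA against ALA they spanned 1.22 to 2.88 for PLA2G5, −0.72 to 4.64 for PLA2G2D, −5.80 to −3.14 for PLA2G2F and −0.84 to −0.46 for PLAAT3. For ALA against untreated they spanned −0.54 to 0.53 for PLA2G5, −5.02 to 1.01 for PLA2G2D, −0.31 to 1.70 for PLA2G2F and −0.15 to 0.42 for PLAAT3. The difference between the effects of ALA with and without ConA spanned −6.29 to −4.42 for PLA2G5, −7.57 to −1.58 for PLA2G2D, −9.01 to −6.60 for PLA2G2F and −1.99 to −1.58 for PLAAT3.

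Fitted on intron reads, PLA2G5 had 4.77 for ConA against untreated, −1.65 for ALA against untreated and −3.32 for the difference between the effects of ALA. PLA2G2F had −5.53 for ConA+ALA against ConA, −1.60 for ConA+ALA against ALA, −0.74 for ALA against untreated and −4.79 for that difference. PLAAT3 had −0.70 for ConA+ALA against ConA, 0.052 for ConA+ALA against ALA and −1.02 for that difference. No fitted intron value is given for PLA2G2D, as 3 of the 4 groups had 0 intron reads. The cause of these differences between read kinds was not tested.

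With the replicate block, pathway calls numbered 24 for ConA against untreated, 1 for ConA+ALA against ConA and 11 for ConA+ALA against ALA, and calls over all genes 5676, 74 and 4022, and 6 for ALA against untreated. DESeq2 called 1830 genes for ConA+ALA against ALA, 49 for ConA+ALA against ConA, 4 for ALA against untreated and 4 for the difference. With only the compared groups fitted, 1614 genes were called for ConA against untreated and 3 for ConA+ALA against ConA, and with no filter 2 for the second. With libraries or numbers left out, pathway calls ranged over 0 to 12 for ConA against untreated and 0 to 5 for ConA+ALA against ALA. Calls over all genes ranged over 55 to 2467 for ConA against untreated, 0 to 1184 for ConA+ALA against ALA, 0 to 6 for ConA+ALA against ConA and 0 to 1 for the difference. The lowest of the first 4 of these ranges came without number 2, which leaves 2 libraries per group. Counting depth limits PLA2G5, PLA2G2D and PLA2G2F outside the ConA group, where most libraries had under 10 exon reads of each.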
